A study of Mus musculus with 26 samples.

Results

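Described here are 10 of the 18198 genes of the deposited table: the ligand genes Calcb and Pthlh, the secreted-protein gene Srpx2, the receptor genes Ntrk2, Npy2r, Adra1d and Gpr50, the adhesion gene Slitrk1, the exchange-factor gene Ngef and the protease gene Tmprss11b. They were chosen by measured values of these libraries, because they stood higher in fibroblasts reprogrammed with added cJun than in fibroblasts reprogrammed without it on day 1, 3 or 7. The rule thus used the cJun contrasts of those 3 days, and the values there are given as a description with no test. The working name of the set, genes induced only with added cJun, went against the values of most of the 10, and the set is called here the genes higher with added cJun. Gpr50 was highest in a group without cJun, Npy2r also rose without cJun, Adra1d stood highest on day 0 both with and without cJun, and Srpx2 stood above 100 in the starting fibroblasts. Calcb, Pthlh, Ntrk2 and Tmprss11b also rose without cJun, with both libraries of day 1 above both libraries of day 0.

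The 26 mouse libraries formed 13 groups of 2. MEF were embryonic fibroblasts at passage 2 in serum medium. OSK were such fibroblasts, within 2 passages, infected with retrovirus from the PlatE packaging line and sampled on days 0, 1, 3, 5 and 7; OSK is the usual name for Pou5f1 (Oct4), Sox2 and Klf4, the factors that turn fibroblasts into pluripotent cells. OSK-cJun carried cJun besides, on days 0, 1, 3 and 7. OSK-shSap30 carried OSK and a hairpin against Sap30, delivered by lentivirus, on day 7. All reprogramming groups thus shared the retroviral factors, and the labels name neither the promoter, the control vector nor which of the media, iCD1 or ESC medium, each group had. The iPSC were picked colonies at passages 5 to 8, and the ESC, at passages 20 to 24, were of strain CBA/CaJ X C57BL/6J; both were kept in N2B27 with 2i and LIF, and no strain is given for the other groups. Nothing in the labels tells if the 2 replicates of a group came from separate cultures, so p-values measure only the spread between these libraries, which may be technical.

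Jun encodes a basic leucine zipper protein that pairs with Fos-family or other Jun-family proteins to form the transcription factor AP-1, which binds TGANTCA and drives immediate-early, wound-response and mesenchymal genes in fibroblasts. In textbook accounts AP-1 is active in fibroblasts and is shut down on the way to pluripotency, and added Jun blocks that passage. The 10 genes are known mostly from neurons, sensory ganglia, blood vessels, cartilage or surface epithelium rather than from fibroblasts or stem cells.

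The values are expression scores whose sorted values were nearly identical between libraries, so sequencing depth could not be read from them, and the precision rests on 2 libraries per group. Jun itself stood at 4616 and 5023 in OSK-cJun-D0, 6929 and 6123 in OSK-cJun-D1, 7721 and 6929 in OSK-cJun-D3 and 8981 and 6124 in OSK-cJun-D7. Elsewhere Jun ran from 13 in an ESC library to 1010 in an OSK-D7 library, so the label of every cJun library matched its Jun level. Replicates correlated at 0.9253 (MEF) to 0.9602 (iPSC) over genes. One library stood apart in its factors: OSK-D5 replicate 1 had Pou5f1 at 656, against 21544 in replicate 2, and Sox2 at 1792 against 6116. Fibroblast markers summed to 80992 and 85328 in MEF and to 176 and 643 in ESC, while 12 of 12 pluripotency markers were above 0 in both ESC libraries and in both iPSC libraries.

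**Figure D1:**
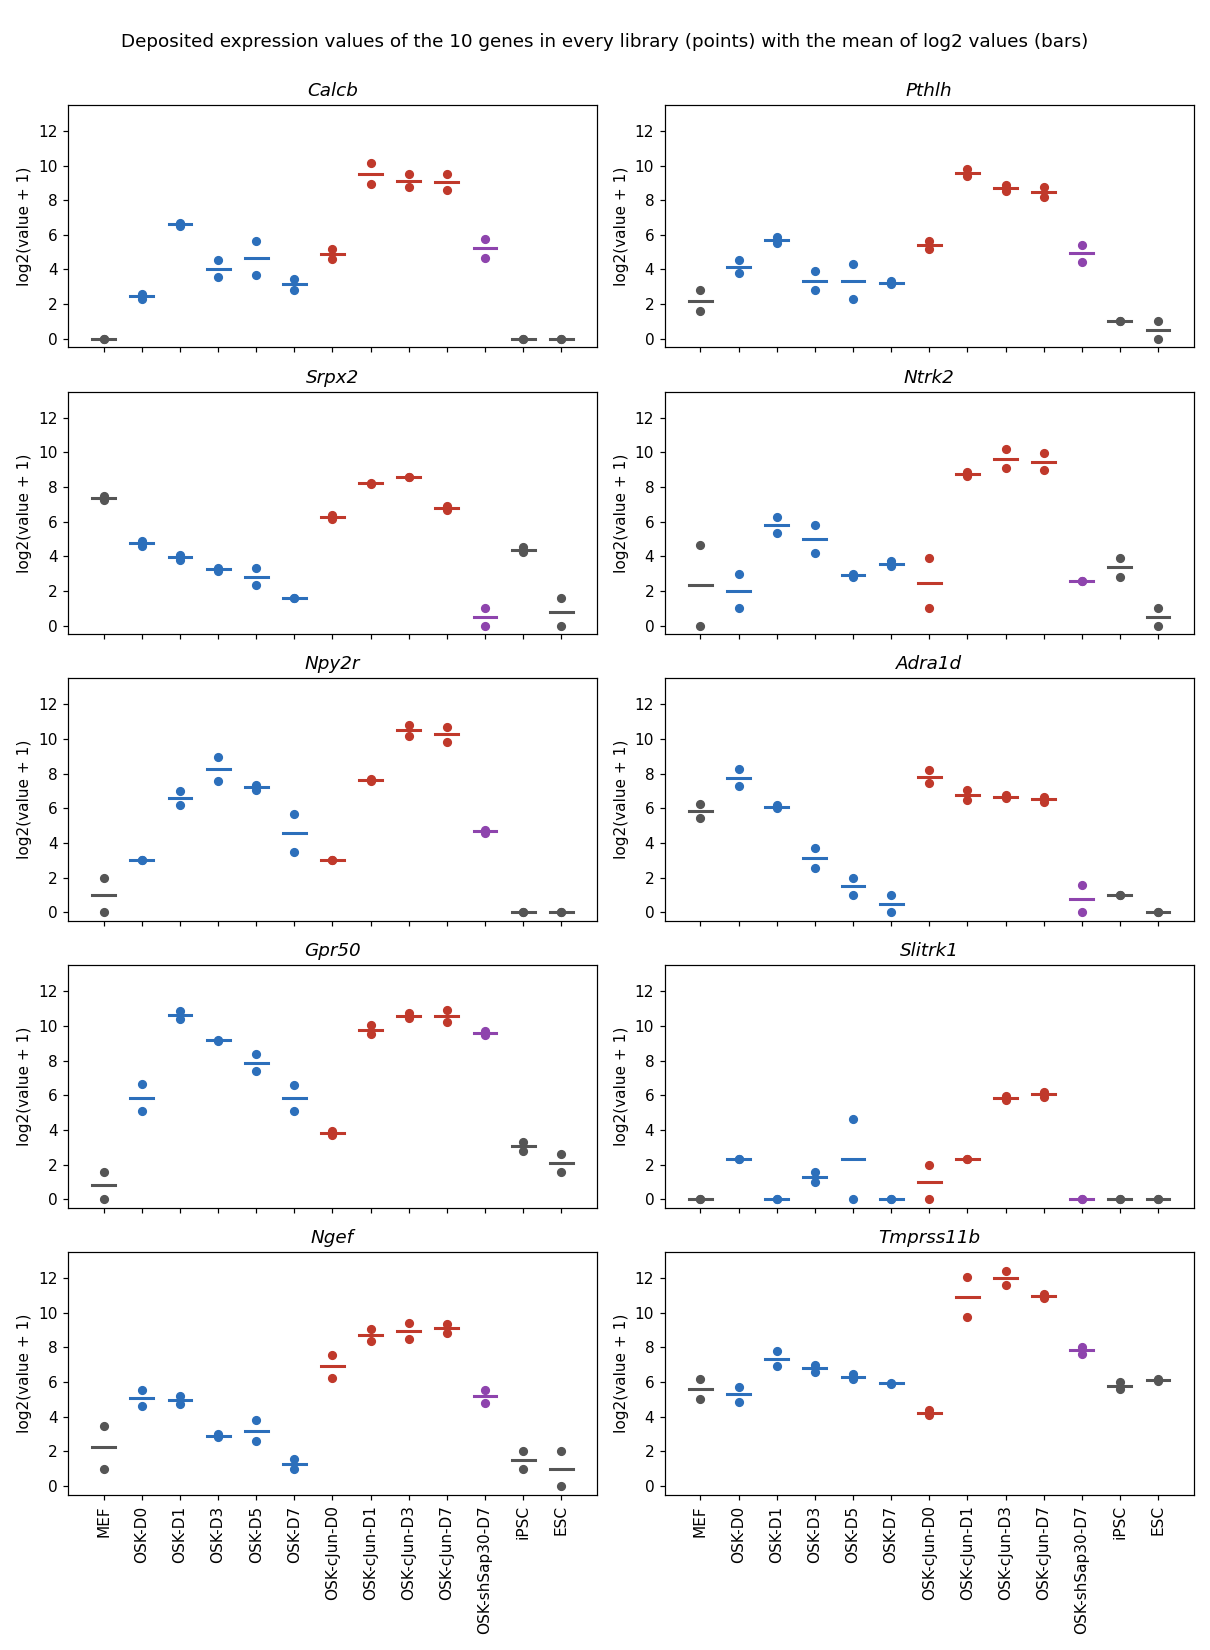
Each panel shows a gene; the vertical axis is log2 of the deposited expression score plus 1, the horizontal axis lists the 13 groups, points are libraries and bars are means of log2 values. Red points (OSK-cJun) of days 3 and 7 lie above the blue points (OSK) of the same day in all 10 panels, while for Gpr50 the OSK-D1 points, 1346 and 1858, lie above the OSK-cJun-D1 points, 730 and 1054.

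Calcb (ENSMUSG00000030666; GRCm38 chr7:114718643-114723365, plus strand) encodes the beta form of calcitonin gene-related peptide, a vasodilator released by sensory neurons. Calcb was listed at 0 in both libraries of MEF, iPSC and ESC. In OSK it stood at 5 and 4 on day 0, 90 and 102 on day 1, 11 and 22 on day 3, 12 and 48 on day 5, and 10 and 6 on day 7. With cJun the values were 23 and 36 on day 0, 480 and 1123 on day 1, 424 and 722 on day 3, and 377 and 714 on day 7. Both cJun libraries were above both OSK libraries on each of the 4 shared days, and the ratio of means went from 6.56 on day 0 through 8.35 on day 1 and 34.7 on day 3 to 68.2 on day 7. The mean was highest on day 1 with and without cJun. With cJun, however, replicate 1 of day 1, at 480, lay between the replicates of day 3 and between those of day 7. The levels of days 3 and 7 with cJun overlapped each other. Calcb lies beside Calca, the alpha peptide gene, in the mouse genome, and the transcript sequences of these genes share a run of 60 coding bases; it is shown because reads from it cannot be assigned to one gene. The first base is the last of exon 3 of 5 at chr7:114720214-114720214 and the other 59 are in exon 4 at chr7:114721975-114722033 (GRCm38, plus strand, GENCODE transcripts).
Calcb and Calca shared coding bases: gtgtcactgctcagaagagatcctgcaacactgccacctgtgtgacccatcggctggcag
Of 913 windows of 50 bases in the Calcb transcript, 11 (1.2%) occurred in Calca, so Calcb values are uncertain to the extent that reads fell there.

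Pthlh (ENSMUSG00000048776; chr6:147252101-147264183, minus strand) encodes parathyroid hormone-related protein, a local signal of cartilage, breast and skin. Its MEF values were 6 and 2, its iPSC values 1 and 1 and its ESC values 0 and 1. Without cJun it was 22 and 13 on day 0, 57 and 46 on day 1, 6 and 14 on day 3, 4 and 19 on day 5, and 9 and 8 on day 7. Added cJun gave 48 and 35 on day 0, 675 and 881 on day 1, 374 and 466 on day 3, and 441 and 290 on day 7. The groups did not overlap on any shared day, and the ratio of means was 15.1 on day 1, 42 on day 3 and 43 on day 7. As with the means of Calcb, day 1 was the highest day in both courses, and the day-3 and day-7 levels with cJun overlapped.

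Srpx2 (ENSMUSG00000031253; chrX:133908426-133932446, plus strand) encodes a secreted sushi-repeat protein that binds the urokinase receptor and is known for synapse formation and angiogenesis. Unlike the ligand genes it was present in MEF, at 150 and 177. It then stood at 29 and 23 in OSK-D0, 13 and 16 on day 1, 9 and 8 on day 3, 9 and 4 on day 5, and 2 and 2 on day 7. The cJun libraries stood at 69 and 83 on day 0, 298 and 292 on day 1, 377 and 373 on day 3, and 118 and 99 on day 7. The cJun groups were above the OSK groups on all 4 shared days, by a ratio of means of 20.3 on day 1, 44.1 on day 3 and 54.3 on day 7, while OSK-cJun-D7 lay below the MEF libraries. Replicates of Srpx2 on days 1 and 3 with cJun were within 1.02 times of each other. In iPSC Srpx2 stood at 18 and 22 and in ESC at 0 and 2.

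Promoter windows of 300 bases around the RefSeq start (GRCm38.p6) were found for 8 of the 10 genes, all but Calcb and Adra1d. The AP-1 motif TGANTCA, searched on both strands, occurred in 1 of these 8 windows, that of Srpx2, against 7.81% of 32851 mouse promoter windows. The related motif TGACGTCA occurred in 0 of 8, against 1.79%, and the octamer ATGCAAAT, bound by Pou5f1, in 0 of 8, against 1.74%; the motifs do not overlap one another. The Srpx2 match is shown because it is the 1 match among the windows. It begins at base -59 from the start, in the window chrX:133908306-133908424 on the plus strand, and the capitals mark the motif.
Srpx2 promoter: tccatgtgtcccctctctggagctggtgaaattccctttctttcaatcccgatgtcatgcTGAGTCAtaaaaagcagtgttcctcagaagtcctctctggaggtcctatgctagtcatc
A match describes the letters of the window and is not evidence of binding.

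Ntrk2 (ENSMUSG00000055254; chr13:58806569-59133970, plus strand) encodes TrkB, the receptor kinase for the neurotrophin BDNF. Its MEF libraries disagreed, at 24 and 0. Without cJun it stood at 7 and 1 on day 0, 77 and 39 on day 1, 54 and 17 on day 3, 7 and 6 on day 5, and 12 and 10 on day 7. Ntrk2 with cJun was at 14 and 1 on day 0, 467 and 389 on day 1, 1153 and 547 on day 3, and 1009 and 494 on day 7. The groups overlapped on day 0 and not on days 1, 3 and 7, when the ratio of means was 7.38, 23.9 and 68.3. Values with cJun differed 2.11 times between replicates on day 3, replicate 1 being the higher, as it was on day 7. In iPSC the gene stood at 6 and 14 and in ESC at 0 and 1.

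Npy2r (ENSMUSG00000028004; chr3:82538383-82548084, minus strand) encodes the Y2 receptor for neuropeptide Y. It stood at 3 and 0 in MEF and at 0 in both iPSC and both ESC libraries. Without cJun it was 7 and 7 on day 0, 126 and 73 on day 1, 508 and 191 on day 3, 165 and 134 on day 5, and 51 and 10 on day 7. With cJun it was 7 and 7 on day 0, 209 and 188 on day 1, 1828 and 1156 on day 3, and 1677 and 911 on day 7. OSK and OSK-cJun were alike on day 0, both courses were highest on day 3, and the ratio of means was 2 on day 1, 4.27 on day 3 and 42.4 on day 7. The gene thus appeared in OSK without cJun, and on day 7 it stood far lower there than on day 3.

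Adra1d (ENSMUSG00000027335; chr2:131545850-131562283, minus strand) encodes the alpha-1D adrenergic receptor, which contracts vascular smooth muscle. The MEF values were 74 and 43, the iPSC values 1 and 1, and both ESC values 0. Without cJun it was 154 and 307 on day 0, 71 and 64 on day 1, 12 and 5 on day 3, 1 and 3 on day 5, and 1 and 0 on day 7. The OSK-cJun values were 176 and 296 on day 0, 89 and 131 on day 1, 95 and 108 on day 3, and 83 and 99 on day 7. Day 0 was the highest day in both courses and the libraries of that day overlapped, and no cJun library of days 1, 3 and 7 reached the day-0 values. OSK values of days 3 to 7 were at most 12. The ratio of means was 1.63 on day 1 and 11.9 on day 3. An exon of Adra1d overlaps the opposite-strand gene Gm14285, and 99 of 1850 windows of 50 bases (5.35%) are shared. The library kit does not mark strand, so reads of these genes cannot be told apart.

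Gpr50 (ENSMUSG00000056380; chrX:71663667-71669257, plus strand) encodes an orphan receptor of the melatonin receptor family. Its values were 2 and 0 for MEF, 6 and 9 for iPSC and 2 and 5 for ESC. Without cJun it was 99 and 33 on day 0, 1346 and 1858 on day 1, 567 and 578 on day 3, 333 and 167 on day 5, and 94 and 33 on day 7. Gpr50 with cJun was at 14 and 12 on day 0, 730 and 1054 on day 1, 1730 and 1386 on day 3, and 1901 and 1188 on day 7. On days 0 and 1 both cJun libraries were below both OSK libraries, with ratios of means of 0.197 and 0.557, and on days 3 and 7 both were above, with ratios of 2.72 and 24.3. OSK was highest on day 1, whereas the cJun libraries of days 3 and 7 overlapped each other.

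Slitrk1 (ENSMUSG00000075478; chr14:108908800-108914158, minus strand) encodes a transmembrane protein of neurons that organises synapses. It was listed at 0 in both MEF, iPSC, ESC, OSK-D1, OSK-D7 and OSK-shSap30-D7 libraries. Other OSK values were 4 and 4 on day 0, 1 and 2 on day 3, and 24 and 0 on day 5. With cJun it stood at 0 and 3 on day 0, 4 and 4 on day 1, 62 and 52 on day 3, and 73 and 59 on day 7. No library outside OSK-cJun-D3 and OSK-cJun-D7 exceeded 24, and in that OSK-D5 library, replicate 1, the other replicate was at 0.

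Ngef (ENSMUSG00000026259; chr1:87476834-87573870, minus strand) encodes ephexin, a guanine nucleotide exchange factor that acts downstream of Eph receptors in growth cones. Values were low at the endpoints, 1 and 3 for iPSC and 3 and 0 for ESC, and MEF replicates were at 10 and 1. Without cJun it was 24 and 45 on day 0, 35 and 26 on day 1, 7 and 6 on day 3, 5 and 13 on day 5, and 2 and 1 on day 7. With cJun it was 73 and 191 on day 0, 334 and 525 on day 1, 351 and 687 on day 3, and 455 and 652 on day 7. The groups did not overlap on any shared day. The ratio of means was 3.83 on day 0, 14.1 on day 1, 79.8 on day 3 and 369 on day 7, the last against OSK values of 2 and 1. Ngef overlaps an exon of Neu2 on the opposite strand, and without strand their reads cannot be told apart there; of 3060 windows of 50 bases in the Ngef transcript examined, 0 were shared with another gene.

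Tmprss11b (ENSMUSG00000035861; chr5:86657631-86676362, minus strand) encodes a transmembrane serine protease of surface epithelia. It was above 0 in all 26 libraries, at 31 and 70 for MEF, 63 and 47 for iPSC, and 65 and 70 for ESC. Without cJun it stood at 28 and 52 on day 0, 121 and 218 on day 1, 95 and 128 on day 3, 87 and 70 on day 5, and 59 and 60 on day 7. With cJun it was 16 and 20 on day 0, 851 and 4319 on day 1, 3162 and 5504 on day 3, and 1867 and 2133 on day 7. On day 0 the cJun libraries were the lower pair, and on the other 3 days the higher pair. Its 2 libraries of OSK-cJun-D1 differed 5.08 times from each other, the widest gap of replicates among the 10 genes on the cJun days 1, 3 and 7.

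**Figure D2:**
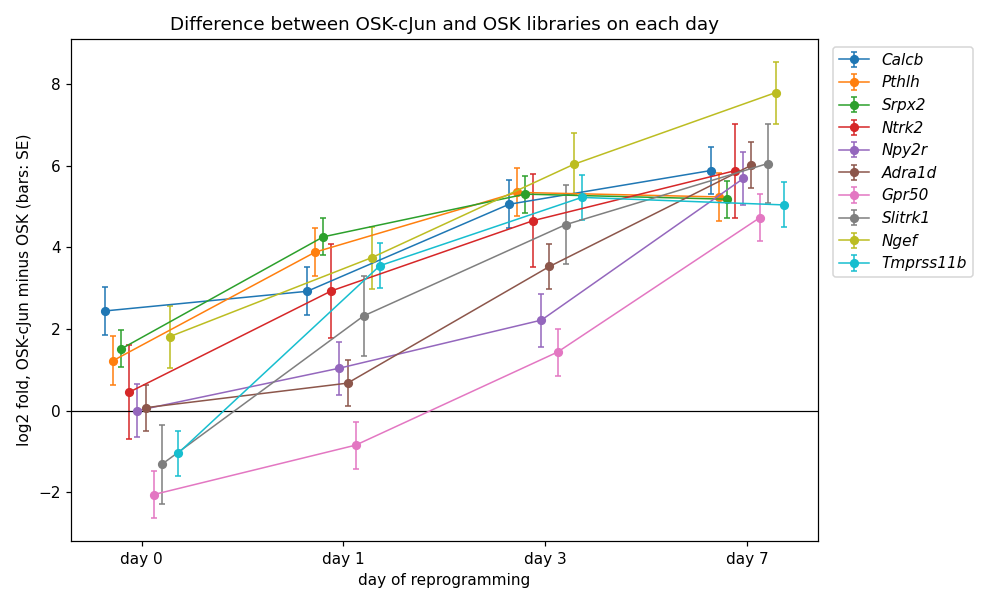
Log2 fold (OSK-cJun minus OSK, on the log2(value + 1) scale) of each gene on days 0, 1, 3 and 7, with bars of 1 SE from limma over 2 libraries a group; points are shifted sideways for view. Gpr50 goes from -2.06 on day 0 to 4.73 on day 7, and all 10 genes lie above 4 on day 7; these contrasts of days 1, 3 and 7 chose the genes.

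A gene is called if limma's adjusted p is below 0.05 and the log2 fold is 1 or more in size. Of all 16038 genes tested, 1.24% were called higher with cJun on day 1, 4% on day 3 and 6.76% on day 7, and 0.742%, 3.54% and 5.03% were called lower (1.98%, 7.54% and 11.8% in all). Since the rule used these contrasts, the members' own calls on these days are not counted as results. All 10 passed the filter on low values, which asks for at least 10 in at least 2 libraries; Slitrk1 passed through the OSK-cJun libraries of days 3 and 7, and elsewhere only OSK-D5 replicate 1 reached 10, so its comparisons of other groups rest on values near 0. Both cJun libraries were above both OSK libraries on all 3 days for 9 of 10, against 7.96% of genes. As the rule chose the members for such differences, nothing is read from that count. The differences nearest to the edge of the rule were on day 1, a log2 fold of -0.85 for Gpr50, 0.67 for Adra1d and 1.04 for Npy2r. Calcb, Pthlh, Srpx2, Ngef and Tmprss11b had day-1 log2 folds of 2.93, 3.89, 4.26, 3.75 and 3.55. Genes just outside the rule are not defined, because the rule gives no threshold.

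The comparison of OSK-cJun-D0 with OSK-D0 was not used to choose the genes, and it asks whether they already differed at the start of the course. Of the 10 members 0 were called, against 12 of 16038 genes (0.0748%; 0.0312% higher and 0.0436% lower), and Jun was 1 of those 12, higher by a log2 fold of 2.71 (adjusted p = 0.00345). At an unadjusted p below 0.05 stood 4 of the 10, and 712 of all genes. Calcb was at a log2 fold of 2.44 (SE 0.59, adjusted p = 0.245), Srpx2 at 1.51 (SE 0.46, adjusted p = 0.534) and Ngef at 1.81 (SE 0.76, adjusted p = 1). Gpr50 was at -2.06 (SE 0.58, adjusted p = 0.433). Both cJun libraries were the higher pair for 4 members (15% of all genes) and the lower pair for 3 (12.9%). Npy2r was at 7 in all 4 libraries, and Adra1d differed by 0.07. With a pseudocount of 10 Srpx2 was called (1.26, adjusted p = 0.0151).

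OSK-D0 was also compared with MEF, which asks how the infected cells of day 0 differed from the starting fibroblasts. With no control vector and no medium named for each group, effects of the factors, of infection and of medium cannot be told apart here. Here 5 members were called higher (4.92% of all genes) and 1 lower (2.06%; 6.98% in either direction). Gpr50 rose by a log2 fold of 5.07 (SE 0.58, adjusted p = 2.54e-05), from 2 and 0 to 99 and 33. Ngef rose by 2.85 (SE 0.76, adjusted p = 0.0235), Pthlh by 1.97 (SE 0.59, adjusted p = 0.0447) and Adra1d by 1.93 (SE 0.56, adjusted p = 0.0392). Calcb was called higher (adjusted p = 0.0123) at 5 and 4 against MEF listed at 0. Srpx2 fell by 2.61 on the log2 scale (SE 0.46, adjusted p = 0.00115). Only Srpx2 and Gpr50 kept the call whichever library was left out: without OSK-D0 replicate 1, OSK-D0 replicate 2 or MEF replicate 2 the members called were 3, 2 and 2. Calcb, Pthlh and Ngef lost the call in each of these 3 cases and Adra1d in the last 2. Srpx2 missed the threshold with a pseudocount of 0.1 (adjusted p = 0.142) and Gpr50 when those groups were fitted alone (adjusted p = 0.059). With a pseudocount of 10 Calcb (adjusted p = 0.556) and Pthlh (adjusted p = 0.0852) missed it.

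Day 5 of OSK was compared with day 0, a contrast within the course without cJun whose groups the rule did not use. OSK-D0 is shared with the comparisons above, so the sets of calls are not set against each other. Called higher were 3 members (9.8% of all genes) and lower 2 (9.86%; 19.7% in either direction). Npy2r rose by 4.23 (SE 0.65, adjusted p = 0.000107), Gpr50 by 2.02 (SE 0.58, adjusted p = 0.0151) and Calcb by 2.20 (SE 0.59, adjusted p = 0.00957). Adra1d fell by 6.27 on the log2 scale (SE 0.56, adjusted p = 4.36e-07), and Srpx2 fell by 1.92 (SE 0.46, adjusted p = 0.00432). Npy2r and Adra1d kept the call whichever library was left out. Without OSK-D5 replicate 1, the library low in Pou5f1, Gpr50 stood at 1.53 (adjusted p = 0.139) and Slitrk1, listed at 0 in the remaining library, was called lower (adjusted p = 0.0301). Without OSK-D0 replicate 2 Gpr50 (adjusted p = 0.195) and Calcb (adjusted p = 0.0589) lost the call, and without OSK-D5 replicate 2 Calcb (adjusted p = 0.161) and Srpx2 (adjusted p = 0.0596) did. In that last case Slitrk1, at 24 in the remaining library, was called higher (2.32, adjusted p = 0.0251), the reverse of the call without replicate 1, and Pthlh was called lower (-1.84, adjusted p = 0.0364). Slitrk1 thus had no stable direction between these days. Calcb, Srpx2 and Gpr50 also missed the threshold when those groups were fitted alone (adjusted p = 0.125, 0.0899 and 0.0763), as did Srpx2 and Gpr50 with a pseudocount of 0.1 (adjusted p = 0.161 and 0.142).

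The endpoints shared the MEF libraries as their reference. In ESC 3 members were called lower than in MEF (20.6% of all genes; 43% in either direction) and 0 higher (22.4%; 1 member was higher at an unadjusted p below 0.05). Srpx2 fell by 6.56 on the log2 scale (SE 0.46, adjusted p = 2.28e-09) to 0 and 2. Adra1d, listed at 0 in both ESC libraries against 74 and 43, was called lower (adjusted p = 1.26e-07), and so was Pthlh, by -1.70 (SE 0.59, adjusted p = 0.0217). In iPSC 2 members were called lower (19.7%) and 1 higher (20.2%; 40% in either direction). Srpx2 fell by 2.97 (SE 0.46, adjusted p = 3.73e-05) and Adra1d fell by 4.84 (SE 0.56, adjusted p = 1.95e-06). Gpr50 rose by 2.27 (SE 0.58, adjusted p = 0.00339), from 2 and 0 to 6 and 9. Pthlh in ESC lost the call without ESC replicate 1 (adjusted p = 0.181) or MEF replicate 1 (adjusted p = 0.207), and Gpr50 in iPSC without MEF replicate 2 (adjusted p = 0.0748). A pseudocount of 10 ended both calls (Pthlh -0.40, adjusted p = 0.34; Gpr50 0.67, adjusted p = 0.197). Without MEF replicate 2 the members called in ESC were 6.

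**Figure D3:**
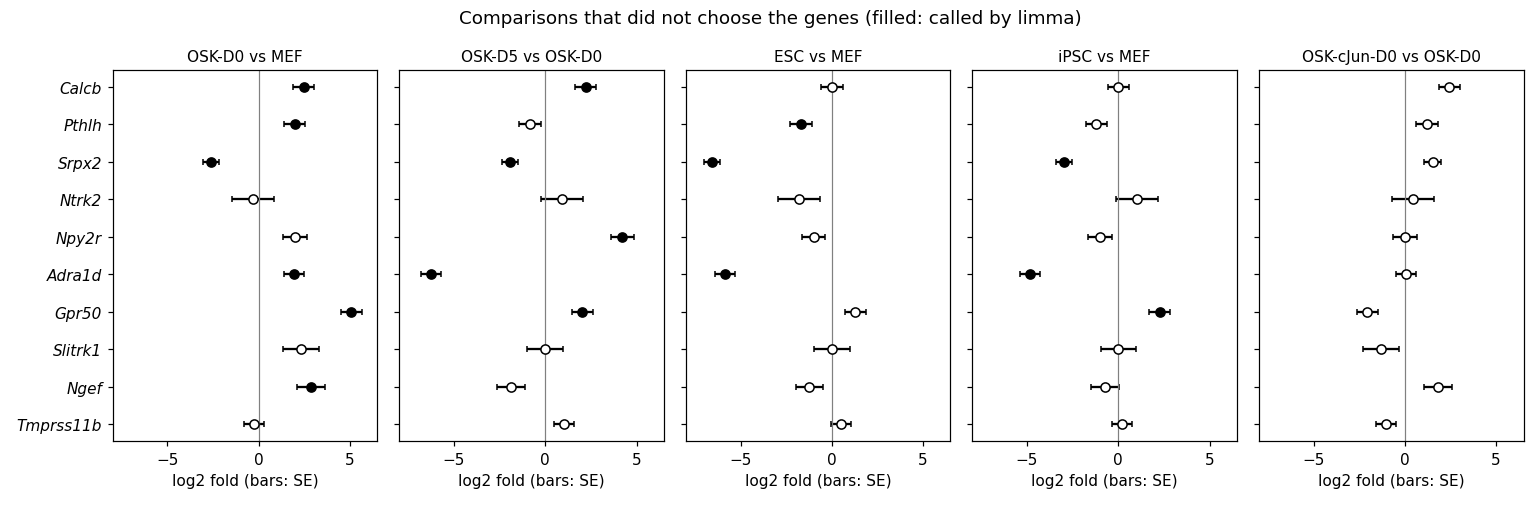
Log2 folds of the 10 genes (log2(value + 1) scale, bars 1 SE, 2 libraries a group) in the 5 comparisons that did not choose them; filled points passed the limma call. In OSK-cJun-D0 against OSK-D0 no point is filled, and Adra1d and Srpx2 lie to the left in OSK-D5 against OSK-D0 and in both endpoint panels.

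The hairpin against Sap30 gave a further day-7 group, in which Sap30, whose protein belongs to the Sin3 histone deacetylase complex, had values of 20 and 41 against 301 and 378 in OSK-D7. That group is set against OSK-D7, whose libraries the rule used, so the values are a description. Both hairpin libraries were the higher pair for 5 of the 10 genes (24.5% of all genes) and the lower pair for 2 (26.4%). Gpr50 stood at 700 and 821 against 94 and 33, and Tmprss11b at 197 and 260 against 59 and 60. Ngef was at 27 and 45 against 2 and 1, Calcb at 54 and 24 against 10 and 6, and Pthlh at 21 and 41 against 9 and 8. Srpx2, at 1 and 0 against 2 and 2, and Ntrk2, at 5 and 5 against 12 and 10, were the lower pair. Npy2r (26 and 23) and Adra1d (0 and 2) overlapped OSK-D7. In all 9 genes with a value above 0 in the hairpin group the day-7 cJun libraries were higher still, by 2.03 times for Gpr50 and 8.75 times for Tmprss11b in the ratio of means.

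Genes of the same signalling systems were listed for each member. How many were called with cJun on days 1, 3 and 7 is given beside the list's median log2 fold. Over all tested genes that median was -0.02, -0.02 and -0.05. From here on, rose and fell mean higher or lower with cJun than in OSK on the same day, not a change over days. Of 3 tested genes of the neuropeptide Y system beside Npy2r, 0, 1 and 1 were higher and 0, 0 and 1 lower (medians 0.86, 0.08 and 0.79). Npy, the ligand gene, stood at 17 and 31, 143 and 52, and 80 and 22 in OSK on the 3 days and at 197 and 296, 768 and 545, and 796 and 457 with cJun. It rose by 2.89 on day 3 (SE 0.86, adjusted p = 0.043) and 3.81 on day 7 (SE 0.86, adjusted p = 0.00592), but the day-3 call was lost without any 1 of the 4 libraries and the day-7 call without OSK-cJun-D7 replicate 1 or OSK-D7 replicate 2. Dpp4, a peptidase that trims neuropeptide Y, fell by 3.14 on day 7 (adjusted p = 0.00456; lost without OSK-cJun-D7 replicate 2).

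For Calcb, 0, 1 and 1 of 9 tested genes of the calcitonin and adrenomedullin peptide system were higher on the 3 days and 0 lower (medians 0.33, 0.34 and 0). The gene called was Calca, at 134 and 57 with cJun on day 3 against 3 and 4 (log2 fold 4.31, SE 0.63, adjusted p = 0.000311), and at 116 and 141 on day 7 against 30 and 16 (2.49, adjusted p = 0.0115); the day-7 call was lost without OSK-cJun-D7 replicate 1, OSK-cJun-D7 replicate 2 or OSK-D7 replicate 2. Calcrl, the receptor subunit, was at 685 and 175 against 98 and 64 on day 7 and was not called (adjusted p = 0.385). Ramp1, whose product makes Calcrl a receptor for this peptide, was at 0 and 3 against 1 and 0; Calcrl and Ramp1 were named after their values were seen. For Pthlh, 0 of 2 tested genes of the parathyroid hormone system were called on any of the 3 days (medians 0.06, -0.25 and -0.98; over all genes 1934, 3426 and 4761 had an unadjusted p below 0.05). Its receptor gene Pth1r, also named after its values were seen, stood at 67 and 86 in OSK-D0 and at 73 and 68 in OSK-cJun-D0. By day 7 Pth1r was at 4 and 2 in OSK and 0 and 0 with cJun.

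Of 13 tested genes of the neurotrophin system beside Ntrk2, 0, 1 and 2 were higher and 0, 1 and 1 lower (medians -0.37, -0.10 and 0.60). Sorcs2, a sorting receptor that partners the neurotrophin receptors, rose by 3.75 on day 3 (SE 0.45, adjusted p = 4.39e-05) and 3.01 on day 7 (SE 0.45, adjusted p = 0.000205). Like Srpx2 it was high in MEF, at 555 and 1561. Bdnf, the ligand of TrkB, was at 280 and 150 with cJun on day 7 against 71 and 43 (1.87, SE 0.40, adjusted p = 0.00365), a call lost without OSK-cJun-D7 replicate 1 or OSK-D7 replicate 2. Ngfr, the low-affinity receptor gene, fell by 3.45 on day 3 (adjusted p = 0.00582; lost without OSK-cJun-D3 replicate 1 or OSK-D3 replicate 2) and by 2.34 on day 7 (adjusted p = 0.0382; lost without any 1 of the 4 libraries).

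**Figure D4:**
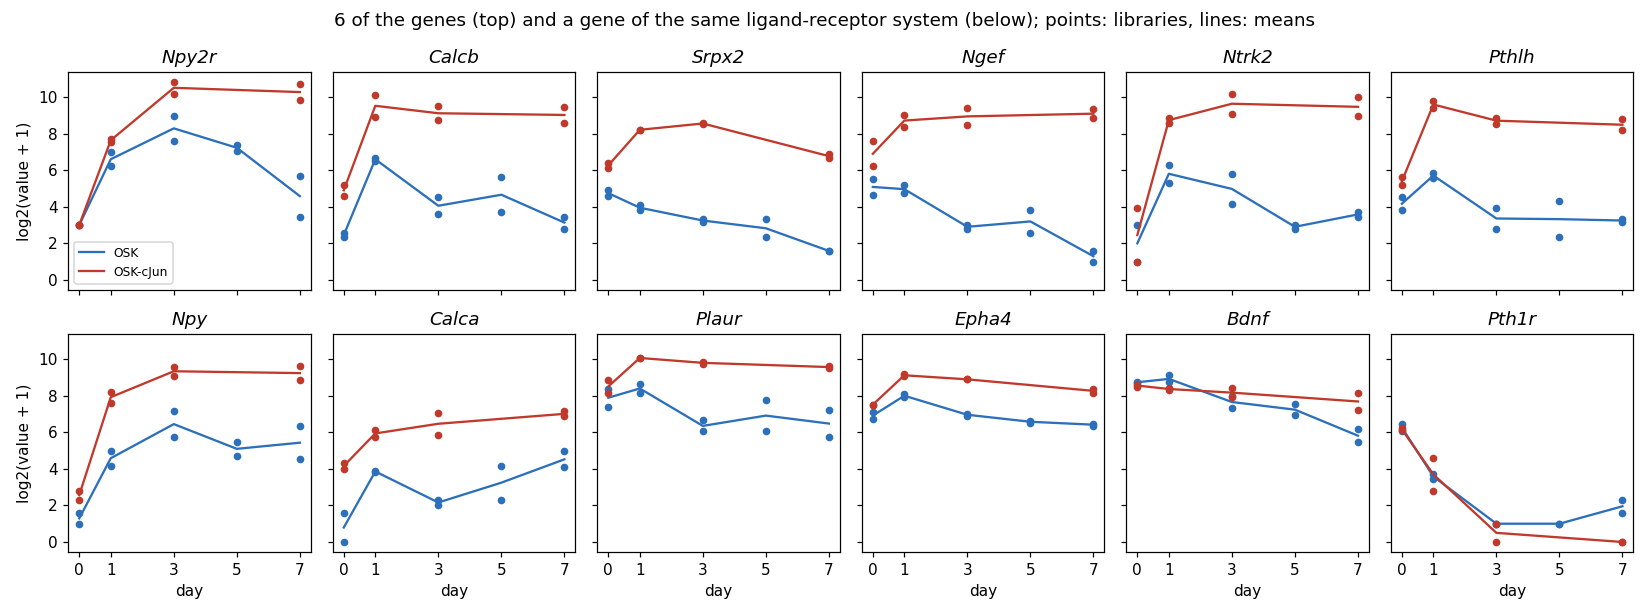
The upper row shows 6 of the genes and the lower row a gene of the same system, as log2(value + 1) by day; points are libraries, lines are means, blue is OSK and red OSK-cJun. Npy, Calca, Plaur and Epha4 have both red points above both blue points on days 3 and 7, while the Pth1r points lie low in both courses from day 3 on; the genes of the lower row were picked after their values were seen.

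Among genes linked to Srpx2 and the urokinase receptor, 0, 1 and 1 of 8 were higher and 0, 1 and 1 lower (medians 0.01, 0.29 and -0.22). Plaur, the urokinase receptor itself, was at 847 and 936 against 100 and 65 on day 3 (3.45, SE 0.59, adjusted p = 0.00119) and at 801 and 719 against 149 and 52 on day 7 (3.09, SE 0.59, adjusted p = 0.00185). Srpx, the closest relative of Srpx2 in the list, went the other way and fell by 2.56 on day 3 (SE 0.45, adjusted p = 0.00128). Serpine2, a protease inhibitor, fell by 2.01 on day 7 (adjusted p = 0.0285; lost without OSK-cJun-D7 replicate 1 or OSK-D7 replicate 2).

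Of 16 tested Eph receptor, ephrin and ephexin genes beside Ngef, 1, 4 and 4 were higher and 0, 0 and 1 lower (medians -0.15, -0.01 and 0.17). Epha4, the Eph receptor known to act through ephexin, was higher on each day: by 1.12 on day 1 (adjusted p = 0.0309; lost without any 1 of the 4 libraries), 1.94 on day 3 (SE 0.26, adjusted p = 0.000131) and 1.85 on day 7 (SE 0.26, adjusted p = 0.000125). Epha2 rose by 2.62 on day 3 (SE 0.47, adjusted p = 0.00164) and by 1.91 on day 7 (adjusted p = 0.0102; lost without OSK-cJun-D7 replicate 1 or OSK-D7 replicate 2). The other ephexin-type genes split on day 7, with Arhgef5 higher by 1.02 (adjusted p = 0.000488; lost without OSK-cJun-D7 replicate 2 or OSK-D7 replicate 1) and Arhgef19 lower (log2 fold -1.62), at 35 and 52 against 128 and 138 (adjusted p = 0.00104). The others called were Epha1 on day 3 (3.79, adjusted p = 0.00762; lost without OSK-cJun-D3 replicate 1 or OSK-D3 replicate 2) and Efna1 on day 3 (2.66, adjusted p = 0.00344; lost without OSK-D3 replicate 2) and day 7 (1.81, adjusted p = 0.0274; lost without any 1 of the 4), named after their values were seen.

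Of 7 tested Slitrk and related adhesion genes 0 were called on any of the 3 days by limma (medians -0.36, -0.40 and 0.02). Of 5 tested adrenergic and melatonin receptor genes, 0, 1 and 1 were lower (medians 0.90, 1.55 and 0). Adrb3, a beta adrenergic receptor gene, fell by 4.31 on day 3 (adjusted p = 0.000736) and by 2.42 on day 7 (adjusted p = 0.0262; lost without OSK-cJun-D7 replicate 1, OSK-cJun-D7 replicate 2 or OSK-D7 replicate 2). Of 14 tested genes of transmembrane serine proteases and their inhibitors, 0, 1 and 1 were higher and 0, 1 and 2 lower (medians 0.25, 0.41 and -0.20). Tmprss11f, a protease of the same subfamily as Tmprss11b, rose by 3.58 on day 3 (adjusted p = 0.0318; lost without OSK-D3 replicate 1 or either OSK-cJun-D3 library) and by 4.42 on day 7 (adjusted p = 0.00608). The inhibitor gene Spint1 fell by 3.33 on day 7 (SE 0.58, adjusted p = 0.000814). Spint2 fell by 1.80 on day 3 (adjusted p = 0.0259) and 1.91 on day 7 (adjusted p = 0.0128), each lost without replicate 1 with cJun or replicate 2 of OSK.

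Genes known as AP-1 targets in other cells were listed as well, apart from the members. Of 18 tested, 2, 4 and 3 were higher and 0 lower (medians 0.75, 0.63 and 0.35). Hbegf, a growth factor, was higher with cJun than in OSK by 2.97, 3.14 and 2.22 on days 1, 3 and 7 (adjusted p = 0.00546, 0.00075 and 0.00673). Within the cJun course Hbegf declined, from 662 and 549 on day 0 to 67 and 41 on day 7. Cd44, a hyaluronan receptor, was higher by 2.11, 1.74 and 1.97 on days 1, 3 and 7 (adjusted p = 0.0103, 0.00985 and 0.00282). Vegfa, the vessel growth factor, rose by 2.33 on day 3 (adjusted p = 0.00224), and Timp1, a metalloprotease inhibitor, by 1.69 and 1.65 on days 3 and 7 (adjusted p = 0.0202 and 0.0159). The calls of Hbegf on day 3, Vegfa on day 3 and Cd44 on day 7 held whichever library was left out. Hbegf lost the day-1 call without OSK-D1 replicate 2 or either OSK-cJun-D1 library and the day-7 call without OSK-cJun-D7 replicate 1 or OSK-D7 replicate 2. Cd44 lost the day-1 call without OSK-cJun-D1 replicate 1 or OSK-D1 replicate 2 and the day-3 call without replicate 1 of either group. Timp1 lost the day-3 call without OSK-D3 replicate 2 or either OSK-cJun-D3 library and the day-7 call without OSK-cJun-D7 replicate 1 or either OSK-D7 library. Of 15 other AP-1 subunit genes only Fosl2 on day 3 (277 and 253 against 135 and 128, adjusted p = 0.0239; lost without any 1 of the 4) and Maff on day 7 (1.59, adjusted p = 0.0341; lost without OSK-cJun-D7 replicate 1 or OSK-D7 replicate 2) were called (medians 0.07, 0.35 and 0.14).

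Markers of other cell types moved with cJun on the same days as the 10 genes, and their part in the results was not tested. In bulk RNA, fewer cells of a type and less RNA per cell cannot be told apart. The summed level of 14 neuron markers ran from 2623 to 7670 in the OSK libraries of days 1, 3 and 7 and from 12534 to 15800 with cJun; of 13 tested, 1, 2 and 3 were higher and 1, 0 and 1 lower (medians 0, -0.15 and 0.15). On day 7 with cJun most of that sum was 1 gene, the neurofilament Nefl, at 11667 and 11668 against 1905 and 965 (log2 fold 3.10, adjusted p = 0.011; lost without OSK-cJun-D7 replicate 1 or OSK-D7 replicate 2). Tubb3, a neuronal tubulin, rose by 2.31, 3.36 and 2.61 (adjusted p = 0.0112, 0.000146 and 0.000736; the day-1 call was lost without any 1 of the 4 libraries). Gap43, a growth cone protein, rose on day 3 (774 and 350 against 81 and 51, adjusted p = 0.000188) and by 2.30 on day 7 (adjusted p = 0.00104). Map2, of dendrites, fell by 1.37 on day 1 (adjusted p = 0.0252; lost without OSK-D1 replicate 1 or either OSK-cJun-D1 library), and Prph, named after its values were seen, fell by 2.41 on day 7 (adjusted p = 0.0415; lost without any 1 of the 4). The neuron markers Elavl3 and Dcx were at 0 in both cJun libraries of days 1 and 3, and also in both OSK-D1 libraries.

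Keratinocyte markers, 11 in the table, summed to 264 to 1090 in OSK and 1583 to 3462 with cJun on those days; of 9 tested, 1, 2 and 4 were higher and 0, 1 and 0 lower (medians 1.25, 0.32 and 1.29). Krt6a, a wound-response keratin, rose on days 1, 3 and 7, to 277 and 210 against 19 and 4 on day 7 (adjusted p = 0.0325, 0.00349 and 0.000746; the day-1 call was lost without any 1 of the 4 libraries). Perp rose by 2.87 (adjusted p = 0.00101), Krt16 by 3.58 (adjusted p = 0.00343) and Krt14 by 3.41 (adjusted p = 0.0045) on day 7, the last lost without OSK-cJun-D7 replicate 1 or OSK-D7 replicate 2. Trp63, the master regulator of keratinocytes, named after its values were seen, fell by 2.56 on day 3 (adjusted p = 0.048; lost without any 1 of the 4). Krt5 and Krt17 were at 0 in both libraries of OSK-cJun-D3, and Krt17 also in both libraries of OSK-D3. On day 0 most of the keratinocyte sum was Perp, at 402 and 427 of 443 and 471 in OSK-D0.

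Macrophage markers, 8 in all, summed to 124 to 465 in OSK and 376 to 961 with cJun, with 1 called higher on each day, Cd68 (2.83, 3.55 and 2.60; adjusted p = 0.0294, 0.00173 and 0.0107; lost without any 1 of the 4 libraries on day 1 and without replicate 1 of either group on day 7), and 0 lower (medians -0.08, 0.58 and 0.26). Most of each sum with cJun was Cd68 alone, at 313 and 599 on day 1, 688 and 883 on day 3, and 527 and 351 on day 7. Adgre1 and Tyrobp were at 0 in both OSK-cJun-D7 libraries, and Tyrobp also in both OSK-D7 libraries. Endothelial markers, 6 in all, summed to 317 to 496 in OSK and 571 to 1757 with cJun; of 4 tested, Tek was higher on day 1 (1.57, adjusted p = 0.0218; lost without any 1 of the 4), Kdr on day 7 (3.54, adjusted p = 0.0308; lost without OSK-cJun-D7 replicate 1 or either OSK-D7 library), and 0 were lower (medians 0.51, 0.50 and 0.38). Cdh5, Tie1 and Emcn were at 0 in both OSK-cJun-D7 libraries, and Tie1 and Emcn also in both OSK-D7 libraries. On day 0 most of the endothelial sum was Tek, at 554 and 734 of 646 and 777 in OSK-cJun-D0. Schwann and neural crest markers, 7 in all, summed to 104 to 496 in OSK and 100 to 272 with cJun (medians 0, 0.07 and 0.50), with Cdh19 at 38 and 29 against 1 and 0 on day 7 (adjusted p = 0.00502; lost without OSK-D7 replicate 2).

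Fibroblast markers, 10 in all, summed to 38870 and 39510 in OSK-D1 against 35144 and 33874 with cJun, and to 11964 and 11224 in OSK-D7 against 36084 and 35302. Of these 0, 1 and 2 were higher and 0 lower (medians -0.20, 0.33 and 0.87), namely Col3a1 on days 3 and 7 (1.56 and 2.62; adjusted p = 0.0341 and 0.000678; the day-3 call was lost without any 1 of the 4) and Twist1 on day 7 (2.30, adjusted p = 0.00242; lost without OSK-D7 replicate 2). Pluripotency markers, 12 in all, summed to 3448 and 2471 in OSK-D7 against 1075 and 803 with cJun, with 0 higher and 1, 5 and 9 lower (medians -0.16, -1.16 and -3.30). Tdh, an enzyme of threonine breakdown in stem cells, fell on all 3 days, on day 7 to 26 and 17 against 1079 and 539 (adjusted p = 0.0016, 2.45e-05 and 3.27e-05). Zfp42, a stem cell zinc finger gene, fell on days 3 and 7, on day 7 to 9 and 7 against 85 and 111 (adjusted p = 4e-05 and 0.000242). Dppa5a fell by 4.46 (adjusted p = 0.00035) on day 7, and Utf1 was listed at 0 with cJun on day 7 against 10 and 6 (adjusted p = 0.000268). The others called lower on day 3 were Tfcp2l1, Fbxo15 and L1td1, named after their values were seen, and each was lost without any 1 of the 4 libraries. Among the calls named above, a pseudocount of 0.1 ended those of Npy on days 3 and 7, Dpp4, Spint1, Nefl, Fosl2, Prph and Trp63, of Fbxo15, L1td1 and Tfcp2l1 on day 3, of Calca, Adrb3, Efna1 and Zfp42 on day 7, and of Krt6a on days 1 and 3. Fitting the compared groups alone ended those of Bdnf, Serpine2, Maff, Map2, Kdr, Krt14, Utf1, Prph and Trp63, of Epha2, Spint2, Hbegf and Adrb3 on day 7, of Fbxo15 on day 3, of Tdh on day 1, and of Efna1 on both days.

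Across the 26 libraries the 10 genes did not share a single profile, as the Pearson correlations of log2(value + 1) show; libraries of a group share their condition and the genes were chosen for a common difference, so these are descriptions. Calcb and Pthlh were the closest pair at 0.95, followed by Pthlh and Ngef at 0.93 and Npy2r and Gpr50 at 0.90. Srpx2 and Adra1d, both present in MEF, correlated at 0.80 with each other, while Gpr50 correlated at 0.13 with Srpx2 and 0.22 with Adra1d. With the mean of the other 9, the correlation was highest for Pthlh (0.939) and lowest for Adra1d (0.570). With Jun it ran from 0.472 for Gpr50 to 0.846 for Pthlh.

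**Figure D5:**
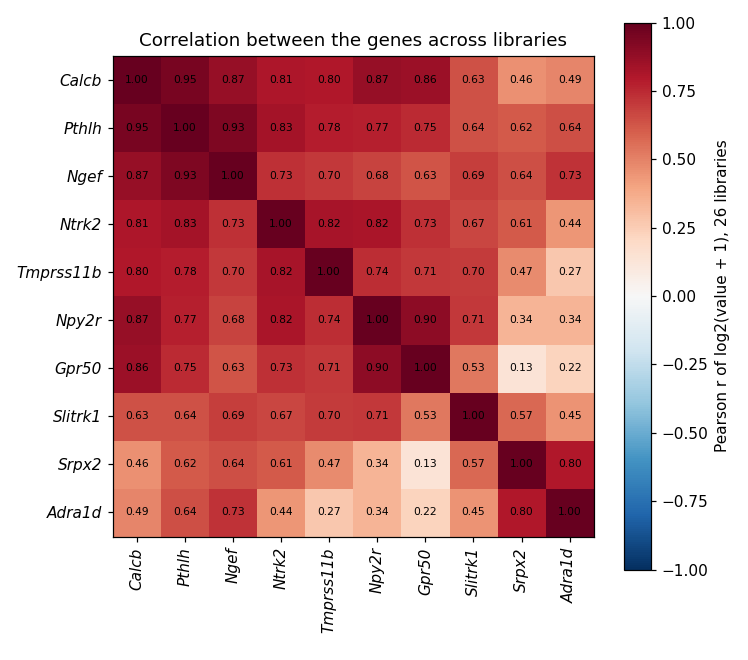
Pearson correlation of log2(value + 1) between the genes over 26 libraries, with the value in each cell and colour from -1 (blue) to 1 (red). Srpx2 and Adra1d correlate at 0.80 with each other and at 0.13 and 0.22 with Gpr50.

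The tested genes outside the set with a profile most like the mean of the 10, over 26 libraries, were Nrd1 (r = 0.956), Fam107a (0.947), Lrrc8b (0.931), Chrna1 (0.927), Myo1e (0.924), Sergef (0.924), Osbpl6 (0.924) and Igsf11 (0.922). By Spearman correlation 0 of these 8 were among the first 8. Nrd1 stood at 2121 and 2031 in OSK-D7 against 7714 and 7714 with cJun, and Fam107a at 13 and 4 against 312 and 123. Gene by gene, the nearest was Rnf183 for Calcb (0.975), Nrd1 for Pthlh (0.961), Capg for Srpx2 (0.882), Chn2 for Ntrk2 (0.893) and Slc26a2 for Npy2r (0.963). It was Ptprm for Adra1d (0.943), Cxadr for Gpr50 (0.956), Gkn1 for Slitrk1 (0.822), Myo1e for Ngef (0.958) and Slc9a2 for Tmprss11b (0.906). The nearest gene was the same by Spearman correlation for Calcb and Adra1d and differed for the other 8.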

How the data were processed

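Per the labels' protocols, RNA came from TRIzol extraction, libraries from a TruSeq RNA kit and reads from a NextSeq 500; bcl2fastq, Bowtie2, RSEM and mm10 are named without versions, per the submitters' processing notes. The table deposited by the authors holds a score per gene, whole numbers that the authors had normalised: sorted values agreed between libraries to within 2 at every rank, totals ran from 4619641 to 4624161, and the highest value was 21544. Depth and counts cannot be recovered. Symbols were matched for 18039 of 18198 IDs (GRCm38), not for 159, and 0 sample columns were left unused.

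For testing, log2(value + 1) was used. Genes with at least 10 in at least 2 libraries (16038) were fitted over all 26 libraries, 1 mean per group, in limma 3.58.1 (R 4.3.3, statmod 1.5.0, data.table package, version 1.17.8) with trended, robust moderation, tested on simulated data. Every adjusted p is limma's, by Benjamini-Hochberg over all 16038 genes; a call needed one below 0.05 and an absolute log2 fold of at least 1. Folds understate changes of genes near 0. Tables and figures used Python 3.11.15, pandas 2.3.3 and matplotlib 3.10.9.

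Named were the 10 members and Jun, from each of 18 gene lists up to 4 called genes with the smallest adjusted p among days 1, 3 and 7, and the genes with the nearest profiles. The members and lists were chosen with earlier results of these data known. Alternatives were pseudocounts, filters, scaling, moderation, a replicate block, fits on the compared groups alone and leaving out each library. A block within the compared groups was chosen after seeing the data. The design had allowed for counts; as the values were a score, limma was used. Sequences are from RefSeq (promoters, GRCm38.p6) and GENCODE transcripts (GRCm38). Protein sequences were not used here. A few genes of the lists are not reported here.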

Additional observations from a re-analysis of the deposited data

Results flagged for a closer look

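Gpr50, Slitrk1 and Tmprss11b differed in direction between days, with both cJun libraries on one side of both OSK libraries on one day and on the other side on another; the difference between days was not tested, and 3 of the 4 days chose the genes. For Gpr50 the log2 fold of OSK-cJun minus OSK was -2.06 on day 0, -0.85 on day 1, 1.43 on day 3 and 4.73 on day 7. For Slitrk1 it was -1.32 on day 0, from values of 0 and 3 against 4 and 4, and 4.56 on day 3. For Tmprss11b it was -1.05 on day 0, 3.55 on day 1, 5.23 on day 3 and 5.04 on day 7.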

How the results depend on the processing

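With a pseudocount of 0.1 the members called were 3 in OSK-D0 against MEF and 3 in OSK-D5 against OSK-D0. With a pseudocount of 10 there was 1 in OSK-cJun-D0 against OSK-D0, where 23 genes were called in all. A filter of at least 50 gave 6 called genes in that comparison. Fitted on the compared groups alone, the genes called were 0 (OSK-cJun-D0), 436 (OSK-D0 against MEF), 2069 (OSK-D5), 205 (OSK-cJun-D1) and 1195 (OSK-cJun-D7), with 1 member in OSK-D0 against MEF and 2 in OSK-D5. Leaving out 1 library gave 1 to 11 genes called on day 0 with cJun, 629 to 1339 in OSK-D0 against MEF (2 to 7 members), 52 to 159 on day 1 with cJun (3 to 4 members), 713 to 813 on day 3 and 1042 to 1734 on day 7, 3 to 5 members in OSK-D5 against OSK-D0 and 3 to 6 in ESC against MEF. The rule used the day-1 contrast with cJun, so nothing is read from its count of members. With the replicate number as a block over all libraries, no count moved by over 1.5 times. Called genes were 14, 1230 and 3284 on day 0 with cJun, in OSK-D0 against MEF and in OSK-D5. Members called there were 0, 7 and 5. Same-numbered libraries deviated together at a correlation of 0.331, 0.265, 0.313 and 0.306 for cJun against OSK on days 0, 1, 3 and 7 and at -0.07 to 0.05 elsewhere; with 2 pairs this is not taken as pairing. The added block within the compared groups, chosen after seeing the data, called 173, 258, 1509, 735 and 1848 genes (OSK-cJun-D0, OSK-D0 against MEF, OSK-D5, OSK-cJun-D1 and OSK-cJun-D3), with 2 members (Srpx2, adjusted p = 0.0398, and Ngef, adjusted p = 0.0205, on day 0), 1 member and 3 members in the first 3. The median fold of all genes in ESC against MEF moved from 0.13 to 0.02 with median-of-ratios scaling.

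Folds reversed in 22 cases, none of a value called as reported; the cause was not tested. For OSK-cJun-D0 against OSK-D0, Ntrk2 ran from -1 to 1.91 with a library left out (-0.55 without OSK-D0 replicate 2), Adra1d from -0.43 to 0.56 (-0.30 without OSK-cJun-D0 replicate 2), and Npy2r was -0.024 under the other scaling. For OSK-D0 against MEF, Ntrk2 was 0.85 with a pseudocount of 0.1 and ran from -2.64 to 2.00 (0.68 without OSK-D0 replicate 2), and Tmprss11b ran from -0.86 to 0.29 (0.15 without OSK-D0 replicate 1). For OSK-D5 against OSK-D0, Pthlh ran from -1.84 to 0.16, Ntrk2 from -0.10 to 1.90 and Slitrk1 from -2.32 to 2.32, and Slitrk1 was -1.40 with a pseudocount of 0.1 and -0.0017 under the other scaling. For ESC against MEF, Ntrk2 ran from -4.14 to 0.50, Npy2r from -2 to 0 and Tmprss11b from -0.053 to 1.10. For iPSC against MEF, Ntrk2 ran from -1.29 to 3.36, Npy2r from -2 to 0, Ngef from -1.96 to 0.50 and Tmprss11b from -0.36 to 0.79. Groups of 2 libraries, unknown depth and values near 0 limit these folds.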
